A study of Mus musculus with 6 samples.

Results

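The 10 inflammatory and regulatory cytokine genes Tnf, Il1b, Il1rn, Il6, Il10, Il15, Il18, Lif, Osm and Tgfb1 were followed in RNA-seq libraries of RAW264.7 cells, a mouse macrophage line. The genes were taken by name, and all 10 were among the 56092 gene symbols of the count table. Cells stably carried either a control shRNA (shNC, 3 libraries) or an shRNA against Trem2 (shTrem2, 3 libraries), delivered by a lentivirus that also encodes GFP and selected with puromycin. Both groups were polarised with 20 ng/ml of IL-4 over 24 hours and then co-cultured for another 24 hours with debris of renal tubular epithelial cells. The comparison asked which cytokine mRNAs differ when Trem2, a receptor of macrophages that binds lipids and cell debris, is knocked down in cells exposed to such debris. No library without IL-4 or without debris was analysed here, so values refer to knockdown against control under both treatments. The groups are separately transduced cells, so an effect of Trem2 cannot be told apart from another difference between these cells. Whether the libraries of a group come from 1 transduced line is not given. Which of the study's Trem2 shRNAs these libraries carry is not given in the sources used here.

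Cytokines are secreted proteins through which macrophages instruct neighbouring cells. Tnf and Il1b encode classical inflammatory mediators, Il1rn encodes the antagonist that blocks the IL-1 receptor, and Il10 and Tgfb1 encode factors that restrain inflammation. IL-6, LIF and oncostatin M belong to 1 family that signals through the shared chain gp130, whereas IL-18 and IL-15 act mainly on lymphocytes. Many cytokine mRNAs are short-lived because AU-rich elements in the 3′ UTR recruit decay factors, and several cytokines need cleavage of the protein before they act, so an mRNA level is not a measure of secreted protein.

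Checks of the libraries preceded the comparison. Named counts per library ranged from 15876119 to 19655165, and Trem2 was lower in all shTrem2 libraries, with 127 ± 15.4 CPM (library-scaled counts with TMM factors; SD, n = 3) for shNC against 69.4 ± 9.42 CPM for shTrem2 and a log2 fold change of −0.87 (adjusted p = 3.39e-06, edgeR quasi-likelihood test). In FPKM, which is scaled for transcript length, Trem2 was at 178 ± 28.5 in shNC and 41.7 ± 4.14 in shTrem2, a larger difference than in CPM. Arg1, whose product the study uses to define its cells, had 3 counts or fewer in every library, and the IL-4 response genes Chil3 and Retnla had 0 counts, so these genes were at or below the detection limit in both groups. Of the 14 genes of the IL-4 response list, 7 were tested, of which 2 rose (Mrc1 and Mgl2) and 3 fell (Cish, Ccl22 and Il4ra). This is 71.4% of those tested, against 21.8% of all genes. Mrc1 and Mgl2 were scarce and entered the test only through their shTrem2 libraries, and Ccl22 only through its shNC libraries. These 3 calls therefore carry less weight. Cish, a feedback inhibitor induced by cytokines, fell from 58.1 ± 2.93 to 11.7 ± 0.882 CPM, and Mrc1, the mannose receptor, rose from 0.472 ± 0.264 to 3.28 ± 0.414 CPM. Of 16 tubular epithelial markers, between 11 and 12 had 0 counts in a given library, among them Epcam and Cdh1. The summed level of the 16 was 0.943 to 1.49 CPM in shNC and 2.35 to 2.98 CPM in shTrem2. Aqp1 alone was tested and rose, and it entered the test only through its shTrem2 libraries. The summed level of 10 macrophage markers was 5583 to 6580 CPM in shNC and 10690 to 12080 CPM in shTrem2, led by Lyz2, and Mertk had 3 counts or fewer in every library. The list did not move as one: Lyz2, Csf1r and Fcgr1 rose, Itgam fell from 466 ± 5.12 to 271 ± 10.4 CPM, and Adgre1, which encodes F4/80, was at 126 ± 9.61 and 85.5 ± 9.87 CPM and was not called. The part of these marker differences in the cytokine results was not tested. In bulk RNA, fewer cells that express a gene and less mRNA per cell cannot be told apart.

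Tnf and Osm fell in shTrem2, by 2.09-fold and 1.86-fold, and none of the 7 genes tested rose. Lif was also called lower, by 5.63-fold, but its level was close to the detection limit. It entered the test only through its high shNC libraries, so its entry and its fold change are not independent. Il1rn, Il15, Il18 and Tgfb1 were not called, with 95% intervals that lay inside a 1.5-fold change, Il1b was too low to enter the fit, and Il6 and Il10 were not detected. A gene was called when edgeR's quasi-likelihood test gave a Benjamini-Hochberg FDR under 0.05 over all 13528 genes tested and the fold change was over 1.5, the criteria of the study. Of the 10 genes, 7 were tested and 3 were called, all lower, or 2 without Lif. Over all genes tested, 21.8% were called, 12.4% lower and 9.46% higher. Beside the 0 members called higher, 1 tested member (Il18) was higher at an unadjusted p under 0.05 and 0 were called higher by DESeq2. The median log2 fold change of the 7 tested members was −0.22 against 0 for all genes. Without the fold criterion 4 members had an FDR under 0.05, against 57.4% of all genes, and in 5 of the 7 the CPM of the groups did not overlap, against 63.8% of all genes. Broad separation of the groups was thus common across the transcriptome, and these shares are to be read against it.

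**Figure D1:**
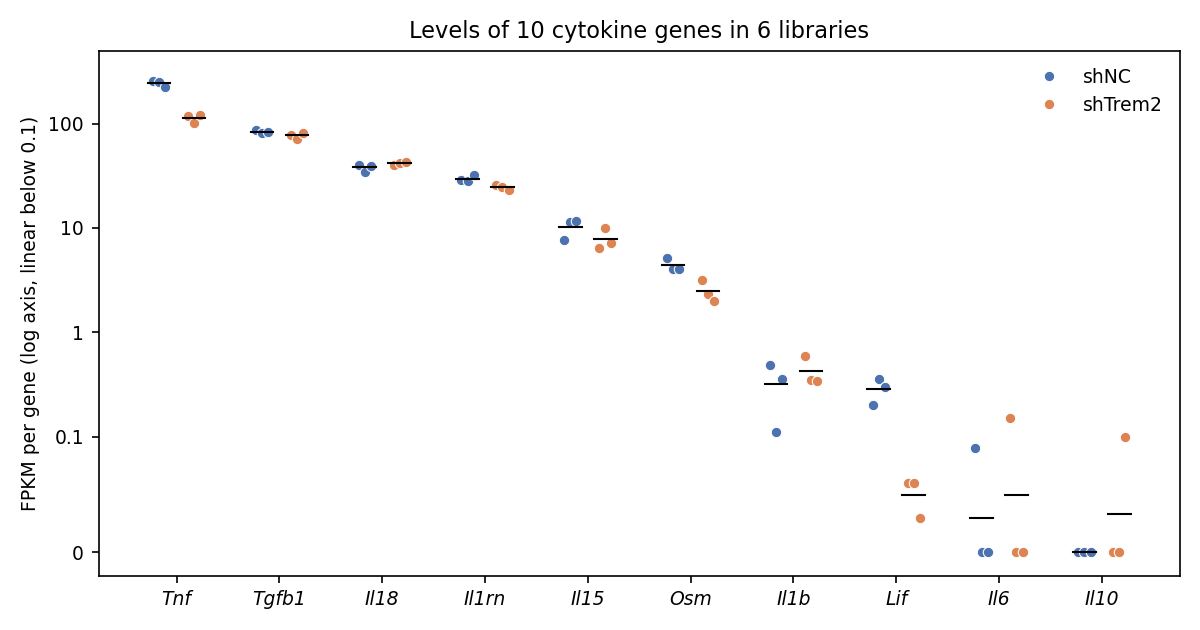
FPKM per gene (a level scaled for library and transcript length, log axis that is linear below 0.1) of the 10 cytokine genes in each of the 3 shNC and 3 shTrem2 libraries; points are libraries and black bars are group means. Tnf and Osm separate fully between groups, Lif separates at levels of 0.36 FPKM or less, and Il6 and Il10 lie at or near 0.

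Levels of different genes were compared per transcript length, with the FPKM values of the authors. In shNC, the mean FPKM fell in the order Tnf (244), Tgfb1 (83.5), Il18 (38.2), Il1rn (29.7), Il15 (10.3), Osm (4.43), Il1b (0.32), Lif (0.287), Il6 (0.03) and Il10 (0). The ranges of neighbours in this order did not touch, except those of Il1b and Lif and those of Il6 and Il10. In shTrem2 the first 7 genes kept this order without touching, from Tnf at 114 FPKM and Tgfb1 at 77.4 FPKM to Osm at 2.51 FPKM and Il1b at 0.427 FPKM. Below Il1b, the range of Lif overlapped those of Il6 and Il10.

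Tnf, the main inflammatory cytokine of macrophages, was the most abundant of the 10 mRNAs. In shNC it measured 336.9, 329.1 and 295.9 CPM, and in shTrem2 160.8, 135.7 and 162.9 CPM. Every shTrem2 library was thus well below the lowest shNC library. The log2 fold change was −1.07 (SE 0.069, 95% interval −1.22 to −0.92, adjusted p = 2.88e-08, edgeR quasi-likelihood test with Benjamini-Hochberg adjustment). Per length, Tnf went from 244 FPKM in shNC to 114 FPKM in shTrem2. The reads fell almost wholly on the 1639 nt protein-coding transcript Tnf-201, which held 100% of the Tnf counts in shNC and 99.99% in shTrem2.

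Because Tnf was the most abundant of the 10 mRNAs, it also set the makeup of their summed level. Other cytokine genes are not part of this sum. The FPKM of the 10 genes summed to 411 ± 16.2 in shNC and 269 ± 14.5 in shTrem2 (SD, n = 3). Tnf made up 59.4% ± 2.33 of that sum in shNC and 42.4% ± 2.02 in shTrem2. The share of Tgfb1, which encodes a cytokine of repair and fibrosis, was 20.3% ± 0.539 and 28.8% ± 0.464, and the ratio of Tnf to Tgfb1 FPKM was 2.93 ± 0.189 and 1.47 ± 0.0533. These shares follow from the values of the single genes and were not tested on their own.

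**Figure D2:**
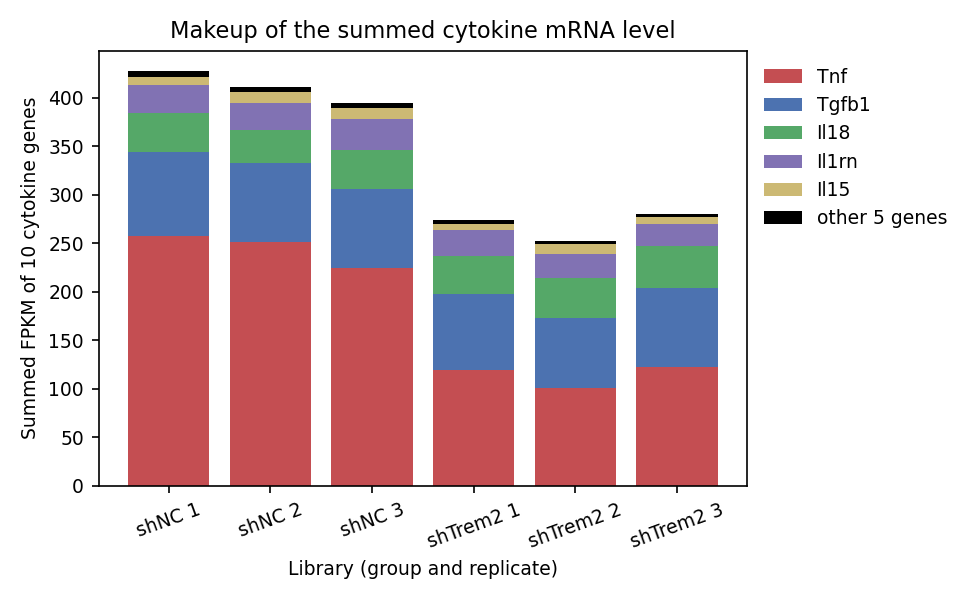
Stacked FPKM of the 10 cytokine genes in each library; each bar is 1 library and each colour 1 gene, with Osm, Il1b, Lif, Il6 and Il10 joined in black. The Tnf segment is between 224 and 258 FPKM in the shNC bars and between 101 and 122 FPKM in the shTrem2 bars, while the Tgfb1 segment is between 71.6 and 86.5 FPKM in all 6.

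Among the gp130 cytokines, Osm was readily detected, Lif was scarce and Il6 was not detected. Osm, which encodes oncostatin M, a product of activated macrophages that acts on stromal and epithelial cells, measured 10.07, 7.60 and 7.31 CPM in shNC and 5.37, 4.44 and 3.61 CPM in shTrem2. The groups did not overlap. The log2 fold change was −0.89 (SE 0.183, 95% interval −1.29 to −0.50, adjusted p = 8.82e-04, edgeR). Of the Osm counts, 98.9% in shNC and 96.5% in shTrem2 came from the 2272 nt transcript Osm-201.

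Lif, which encodes leukemia inhibitory factor, had 11, 23 and 19 counts in shNC and 4, 4 and 2 counts in shTrem2. These correspond to 0.683, 1.28 and 1.05 CPM against 0.209, 0.209 and 0.103 CPM, with every shTrem2 library below every shNC library. A library with 0 counts could still hold up to 3, which is 0.153 to 0.189 CPM here, so 1 shTrem2 library was below that limit. The log2 fold change was −2.49 (SE 0.491, 95% interval −3.60 to −1.48, adjusted p = 5.68e-04, edgeR). Lif entered the fit only through its shNC libraries, and its call carries less weight than those of Tnf and Osm. On log2(FPKM + 1) values with limma, its log2 fold change was −0.29 and below the fold criterion. Il6, the third of these ligands, had 2, 0 and 0 counts in shNC and 1, 0 and 0 counts in shTrem2, which is not detected.

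Sequences are shown for Tnf and Lif because they are the members with the AU-rich nonamer TTATTTATT, a binding sequence of the decay factor tristetraprolin, in the 3′ UTR. The windows of 30 bases below are from GENCODE transcripts on GRCm38, for Tnf-201 at chr17:35199684-35199713 (minus strand) and for Lif-201 at chr11:4272043-4272072 (plus strand), and capitals mark the nonamer, in Tnf as overlapping copies.
Tnf: cacttaTTATTTATTATTTATTTATTATTT
Lif: gggcctTTATTTATTatttaaaacttcaaa
The first nonamer of Tnf lay at position 438 of a 3′ UTR of 764 nt and that of Lif at position 2715 of 3180 nt. Tnf held 5 nonamers and Lif 2, counted with overlap on the sense strand. The other 8 members held none, so 2 of 10 members compare with 5.78% of 21677 genes and 6.78% of the 10967 genes tested that have a 3′ UTR entry. At least 4 nonamers, as in Tnf, were present in 0.185% of all genes.

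The shorter core ATTTA, which lies inside every nonamer, was present in the 3′ UTR of 9 of the 10 members. It was present in 53.9% of all genes and 63.3% of the genes tested that have a 3′ UTR entry. Tnf held 8 copies, Lif 7, and Il6, Il10 and Osm 6 each, Il1b held 4, and Il15, Il18 and Tgfb1 held 1 each. Il1rn, with a 3′ UTR of 1306 nt, held none. Across the tested genes with at least 1 nonamer, 15.3% of 744 were called lower and 6.85% higher, against 11.3% and 9.82% of the 10223 genes without it. With 2 or more nonamers, 22.9% of 144 genes were called lower and 7.64% higher. These shares describe the genes and were not tested, and 3′ UTR length was not taken into account.

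Promoters of Tnf and Lif are shown as those of called members with a RefSeq entry (GRCm38.p6, the 250 bases before the start site), Tnf at chr17:35202008-35202257 (minus strand) and Lif at chr11:4257318-4257567 (plus strand). Capitals mark TATAAA in Tnf and the AP-1 sequence TGACTCA in Lif.
Tnf: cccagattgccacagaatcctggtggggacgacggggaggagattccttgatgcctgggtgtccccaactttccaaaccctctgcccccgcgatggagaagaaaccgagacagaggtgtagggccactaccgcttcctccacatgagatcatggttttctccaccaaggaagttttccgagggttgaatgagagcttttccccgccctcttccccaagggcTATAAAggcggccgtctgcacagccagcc
Lif: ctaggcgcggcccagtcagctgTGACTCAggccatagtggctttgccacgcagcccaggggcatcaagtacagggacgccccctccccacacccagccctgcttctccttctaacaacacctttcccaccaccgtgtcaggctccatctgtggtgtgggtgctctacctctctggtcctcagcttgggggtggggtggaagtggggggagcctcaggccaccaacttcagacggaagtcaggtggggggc
The TATAAA of Tnf lay 29 to 24 bases before the start site, and 13.6% of 32851 promoter windows of 300 bases held it on either strand. The TGACTCA of Lif lay 228 to 222 bases before the start site. TGACTCA or its reverse complement TGAGTCA was in 5.20% of all windows and, among the 7 members with an entry, also in Il6 and Il1rn. The NF-kB sequences GGGACTTTC, GGGAATTTC and GGAAATTCC, each in 0.259% to 0.353% of windows, were in no member window. Only these exact strings were searched, so other forms of the NF-kB site in the member windows were not looked for. Osm, Il10 and Il15 had no entry.

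In the IL-1 family, the antagonist Il1rn and Il18 were both expressed far above the agonist Il1b per length. Il1b had 8, 2 and 5 counts in shNC and 12, 7 and 7 in shTrem2, or 0.111 to 0.497 CPM against 0.361 to 0.626 CPM, and the groups overlapped. An exact two-sided permutation test of its CPM gave p = 0.4, where 3 libraries against 3 cannot give less than 0.1. When all genes with at least 1 count were fitted with edgeR, the log2 fold change of Il1b was 0.62 with a 95% interval from −0.69 to 1.96, so that a change of either sign was not resolved at this depth.

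Il1rn, the receptor antagonist, measured 33.55, 34.72 and 33.99 CPM in shNC and 29.84, 32.18 and 25.70 CPM in shTrem2. The shTrem2 libraries were all below the shNC libraries, by a small margin. The log2 fold change of −0.22 (95% interval −0.40 to −0.05) had an adjusted p of 0.0302 by edgeR's quasi-likelihood test and was below the fold criterion. That adjusted p rested on single libraries: it was 0.0454 without shNC replicate 1 and 0.00773 without shTrem2 replicate 2, but 0.0783 without shNC replicate 2, 0.0582 without shNC replicate 3, 0.0613 without shTrem2 replicate 1 and 0.110 without shTrem2 replicate 3. Il18, whose product is released after cleavage by caspase-1, measured 18.76, 16.92 and 18.59 CPM in shNC and 20.19, 21.37 and 19.99 CPM in shTrem2. Its CPM did not overlap between groups whereas its FPKM did, and the log2 fold change of 0.18 (95% interval 0.0005 to 0.36) had an adjusted p of 0.0806 by edgeR.

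Il15, a growth factor for natural killer and memory T cells, measured 6.77, 6.38 and 7.86 CPM in shNC and 5.22, 7.26 and 5.72 CPM in shTrem2. The groups overlapped, with a log2 fold change of −0.21 (95% interval −0.56 to 0.14, adjusted p = 0.292, edgeR). Tgfb1 measured 159.0, 150.7 and 153.7 CPM in shNC and 149.1, 133.8 and 151.6 CPM in shTrem2, again with overlap. Its log2 fold change was −0.09 (adjusted p = 0.159, edgeR), and the 95% interval of −0.21 to 0.02 lay inside a 1.5-fold change. Il10, the main anti-inflammatory interleukin of macrophages, had 0 counts in all shNC libraries and 0, 0 and 2 counts in shTrem2 and was not detected.

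**Figure D3:**
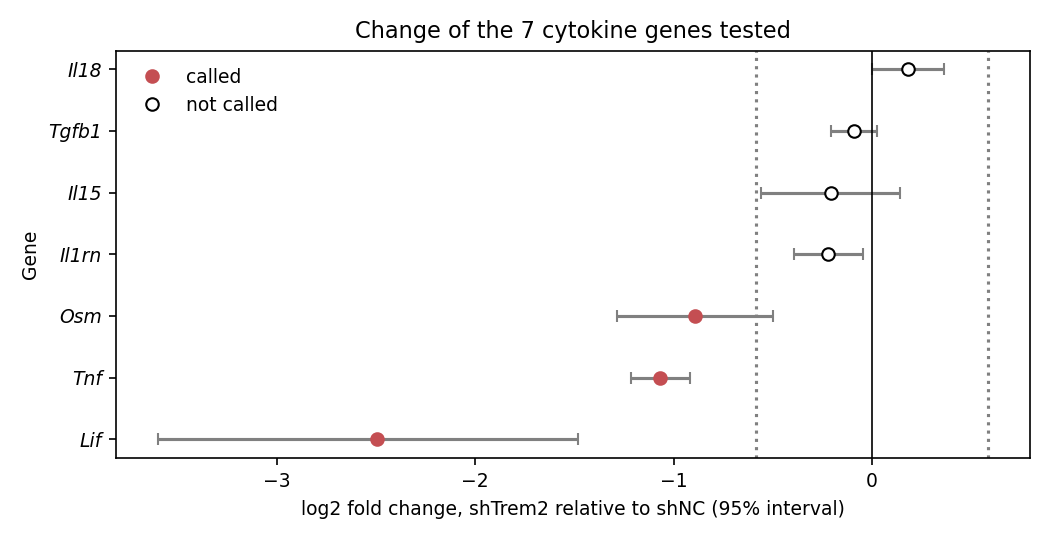
Log2 fold change of shTrem2 relative to shNC for the 7 cytokine genes tested; points are edgeR estimates from 3 libraries a group, bars are 95% intervals, dotted lines mark a 1.5-fold change and filled points are called. Lif (−2.49), Tnf (−1.07) and Osm (−0.89) lie to the left of the lower dotted line, and the other 4 genes lie between the dotted lines.

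By position, Osm and Lif are neighbours. On GRCm38, Osm spans chr11:4236420-4241026 and Lif chr11:4257557-4272514, both on the plus strand and 16531 bp apart, and both were called lower, Lif with the limit given above. Castor1, an arginine sensor of the mTORC1 pathway 14011 bp before Osm, also fell, with a log2 fold change of −1.15 (adjusted p = 2.87e-05, edgeR), while Tbc1d10a further out was at 0.10 (adjusted p = 0.469). Tnf spans chr17:35199381-35202007 on the minus strand, between Ltb and Lta, the lymphotoxin genes of its family. Ltb, 3061 bp away, fell from 40.7 ± 2.63 to 17.9 ± 3.03 CPM (log2 fold change −1.18, adjusted p = 4.06e-07, edgeR). Lta, 1158 bp away, was too low to test, with 4, 4 and 15 counts in shNC and 7, 6 and 2 in shTrem2. Of 8 genes tested within 50 kb of Tnf, 2 were called: Ltb, and Aif1, 23313 bp away, which rose by 1.13 on the log2 scale (adjusted p = 7.08e-04, edgeR). The other 6 (Prrc2a, Lst1, Nfkbil1, Gm16181, Atp6v1g2 and Ddx39b) had log2 fold changes between −0.75 and 0.44 and were not called, and around Osm and Lif 1 of 2 further genes was called. Over all genes tested 21.8% were called, and whether neighbouring genes change together was not tested. The neighbours were looked up after the values of the members were seen.

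**Figure D4:**
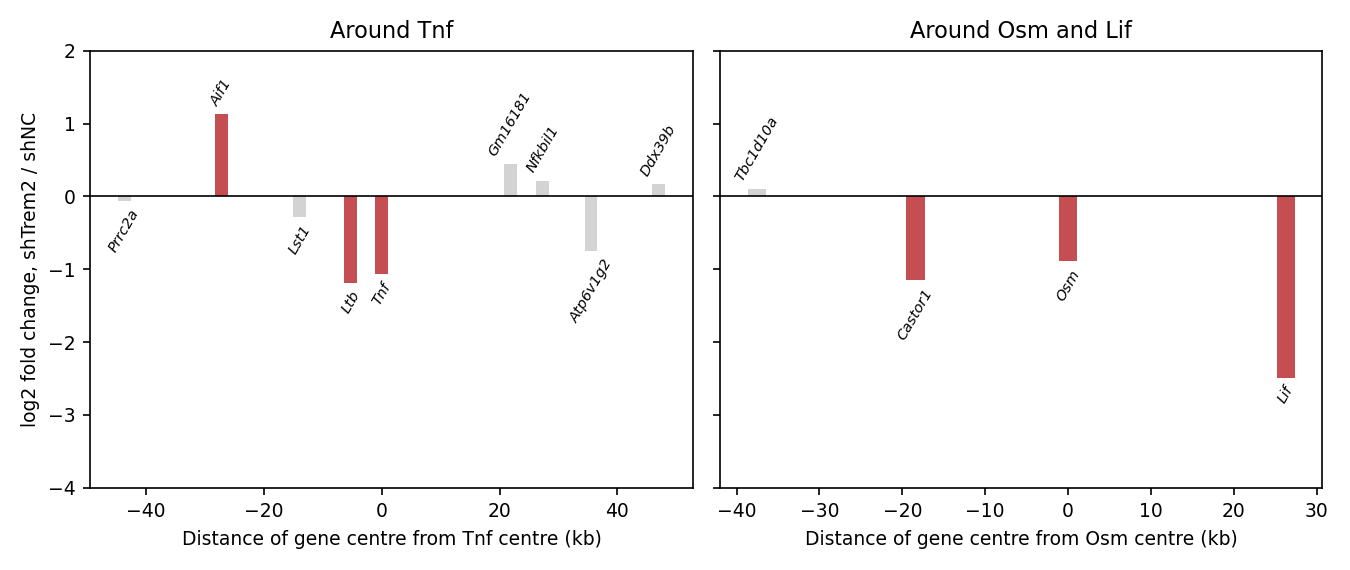
Log2 fold change (shTrem2 relative to shNC) of tested protein-coding genes within 50 kb of Tnf (left) and of Osm and Lif (right), against the distance of each gene's centre from the centre of Tnf or Osm in kb; red bars are called genes and grey bars are not called. Ltb and Tnf point down, as do Castor1, Osm and Lif, and Aif1 points up. Lif is close to the detection limit, and 21.8% of all genes tested were called.

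Of 19 receptor chains of these cytokines, 13 were tested, 3 rose, 1 fell and 9 were not called, with a median log2 fold change of 0.12. The 4 called chains are 30.8% of those tested, against 21.8% of all genes. Lifr, the chain that binds LIF, rose from 2.25 ± 0.224 to 6.02 ± 0.842 CPM (log2 fold change 1.41, adjusted p = 2.67e-05, edgeR), opposite in sign to the value of its scarce ligand Lif. Tnfrsf1a, the main receptor of TNF, rose from 49.5 ± 1.20 to 76.0 ± 2.83 CPM (log2 fold change 0.62), also opposite to Tnf, while the other receptor Tnfrsf1b was at 0.03 with a 95% interval of −0.15 to 0.20. Tgfbr1, the signalling chain for TGF-β, rose from 22.2 ± 2.48 to 48.6 ± 5.47 CPM (log2 fold change 1.13), and Tgfbr2 was at 0.26 and not called. Il10ra, the ligand-binding chain for IL-10, fell from 67.9 ± 1.65 to 34.8 ± 0.647 CPM (log2 fold change −0.97, adjusted p = 1.07e-08, edgeR).

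For several ligands the receptor was incomplete at the mRNA level. Il18r1, a chain for IL-18, had at most 1 count in a library, and Il2rb, a chain for IL-15, at most 3. Il1r1, the signalling receptor of IL-1, the decoy Il1r2, and Osmr, the specific chain for oncostatin M, had 0 counts in all 6 libraries, although Il1rap was expressed at 25.7 ± 1.05 CPM in shNC. The shared chain gp130, encoded by Il6st, measured 251 ± 4.79 CPM for shNC and 259 ± 1.83 CPM for shTrem2 (log2 fold change 0.04, 95% interval −0.05 to 0.13). Il6ra, the IL-6 receptor, went from 73.3 ± 1.58 to 109 ± 3.71 CPM, a log2 fold change of 0.58 that was just below the fold criterion.

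**Figure D5:**
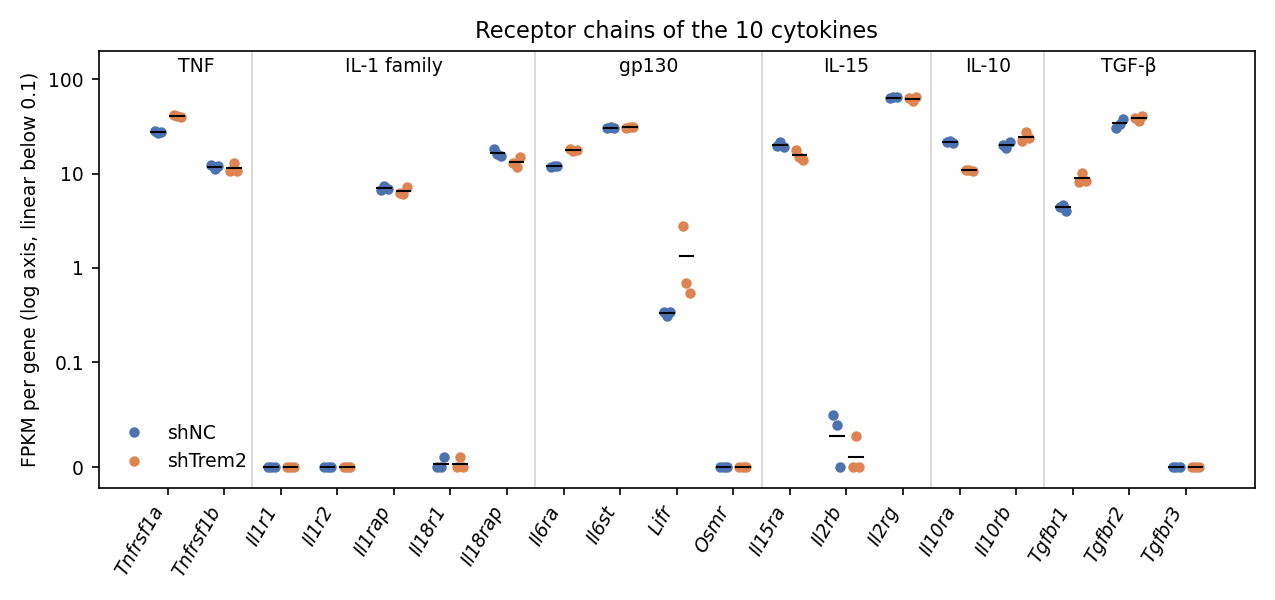
FPKM (log axis, linear below 0.1) of 19 receptor chains in each library, grouped by ligand; points are libraries and bars are group means. Tnfrsf1a, Lifr and Tgfbr1 are higher and Il10ra is lower in shTrem2, and Il1r1, Il1r2, Osmr and Tgfbr3 are at 0 in all libraries.

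Genes that mature or release the cytokines showed no common direction. Of 20 such genes, 14 were tested, 2 rose and 2 fell (28.6% called against 21.8% of all genes, median log2 fold change 0.21). Nlrp3, the sensor of the inflammasome that activates caspase-1, rose from 81.6 ± 7.33 to 123 ± 6.74 CPM (log2 fold change 0.59). Pycard, its adaptor, rose by 1.45 but from 4 to 6 counts in shNC to 12 to 17 counts in shTrem2. It entered the test only through its shTrem2 libraries, so its call carries less weight, and it is named after its values were seen. Rhbdf2, which encodes iRhom2, a partner of the protease that sheds TNF, fell from 127 ± 5.47 to 76.2 ± 1.72 CPM (log2 fold change −0.74, adjusted p = 5.06e-08, edgeR). Adam17, the protease itself, was at 0.22 and not called. Sigirr, an inhibitory receptor of the IL-1 family, fell by 1.09.

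Of 30 signalling and feedback genes, all were tested, 2 rose, 6 fell and 22 were not called (26.7% called against 21.8% of all genes, median −0.11). The largest falls on the log2 scale were those of Bcl3, a nuclear partner of NF-kB, at −2.13, Irak2, a kinase of the IL-1 and Toll-like receptor pathway, at −1.75, and Jak2, a kinase of cytokine receptors, at −1.24. Bcl3 went from 10.5 ± 0.981 to 2.39 ± 0.211 CPM and Irak2 from 158 ± 14.0 to 47.0 ± 0.967 CPM (adjusted p = 9.96e-08 and 2.90e-10, edgeR). Of 13 genes for the turnover of AU-rich or stem-loop mRNAs, 1 rose and 3 fell (30.8% called against 21.8% of all genes, median −0.01). Zc3h12a, which encodes the endonuclease Regnase-1, fell by 1.11 and its relative Zc3h12c by 1.16. Within 1 family Zfp36l1 fell by 0.60 whereas Zfp36l2 rose by 0.72. Zfp36 of the same family, which encodes tristetraprolin, was at −0.18 (adjusted p = 0.0155, edgeR) and was not called.

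Of 42 other cytokine genes, 40 were in the table, 19 of these had 3 counts or fewer in every library and 14 were tested. Of the tested genes 3 rose, 4 fell and 7 were not called (50% called against 21.8% of all genes, median −0.07). Il23a and Gdf15, which fell, entered the test only through their shNC libraries. Tnfsf10 and Tnfsf14, which rose, entered it only through their shTrem2 libraries. These calls therefore carry less weight, and the genes are named after their values were seen. Il16, a chemoattractant for CD4+ cells, fell from 108 ± 6.55 to 46.7 ± 5.76 CPM (log2 fold change −1.22, adjusted p = 2.89e-08, edgeR). Tnfsf13b, which encodes the B cell factor BAFF, rose from 4.12 ± 0.307 to 8.61 ± 0.786 CPM (log2 fold change 1.06, adjusted p = 3.66e-05, edgeR). Over these 5 groups, 84 of 124 genes were tested, 11 rose and 16 fell, with a median log2 fold change of −0.01. The 27 called genes are 32.1% of those tested, against 21.8% of all genes, of which 12.4% were lower and 9.46% higher. Among the 27 are Pycard, Il23a, Gdf15, Tnfsf10 and Tnfsf14, whose entry to the test depended on the group where they were higher. The difference between the shares was not tested.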

How the data were processed

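RNA was sequenced from 3 shNC and 3 shTrem2 libraries, grouped by their labels. The submitters' processing notes name fastp, HISAT2, StringTie and GRCm39. The counting tool and annotation release are not given in the sources used here. The authors deposited estimated counts per transcript, most of them (79.3% of nonzero values) not whole, and FPKM per gene. The authors' group means were not used. Values of all rows sharing a symbol were summed and then rounded. Rows without a symbol (0.908% to 1.12% of counts) were left out.

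Genes were tested with edgeR 4.0.16 (TMM, filterByExpr, glmQLFit, glmQLFTest; R 4.3.3) with group as the single term, and adjusted by Benjamini-Hochberg over 13528 genes. Nothing says that replicates are separate cultures, so p-values measure the spread between these libraries, which may be technical. Detection limits cover counting error only. Alternatives were DESeq2 1.42.0, limma 3.58.1 (voom, and log2(FPKM + 1) and log2(FPKM + 0.1)), other normalizations, filters and thresholds, an offset for effective length, a replicate block and each library left out. The fit was tested on simulated data.

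Transcripts, 3′ UTRs and gene positions came from GENCODE M21 (GRCm38), not the build of the files. Motifs were searched on both strands in promoters and on the sense strand in the lowest-numbered protein-coding transcript. All members are named, with the receptor chains of members and, per list, up to 4 called genes of the largest change whose mean log2 CPM was 1 or more. A gene that this rule would name is not reported here. Members and lists were chosen with earlier results of these data known.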

Additional observations from a re-analysis of the deposited data

How the results depend on the processing

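Over 20 alternatives, Tnf, Osm, Lif, Il1rn, Il15, Il18 and Tgfb1 kept their direction in each fit that tested them. Of the members, 3 were called, and 2 when 10 counts were required in every sample (Lif was then not tested), 2 with log2(FPKM + 1) and 2 with a fold change over 2, where Osm was lost. Without a fold threshold 4 were called, with Il1rn added. Leaving out each library gave 3 calls among the members, 24 to 28 among the listed pathway genes (27 with all libraries) and 2789 to 3105 among all genes (2951). A fold change over 2 left 17 pathway genes and 1339 genes called, and no fold threshold 56 and 7763, which follows from the threshold. With the replicate number as a block, 3 members, 27 pathway genes and 2911 genes were called. Deviations of same-numbered libraries correlated at 0.006, −0.004 and 0.007, so the numbers were not taken to pair the libraries. Depth limits Lif, Il1b, Il6 and Il10, whose counts per library did not exceed 23.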
